A study of Mus musculus with 9 samples.

Results

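The matrix metalloproteinases and their tissue inhibitors were followed in the mouse mammary carcinoma line 4T1, which is of epithelial origin, as 10 genes picked by symbol from the 52306 named genes of the deposited table. They are 7 metalloproteinases (Mmp2, Mmp3, Mmp9, Mmp10, Mmp13, Mmp14 and Mmp19) and 3 inhibitors (Timp1, Timp2 and Timp3). All 9 RNA-seq libraries were made at day 2 and fell into 3 groups of 3: a negative control labelled NC, cells treated with the Wee1 kinase inhibitor MK1775, also called adavosertib, and cells whose label reads Wee1 siRNA knockdown. The series sets each treated group against NC. The NC titles say no more than negative control, so vehicle, transfection and treatment cannot be told apart, and neither the MK1775 dose nor the siRNA sequences were known here. The titles of the third group are numbered 1# to 3#, and no label tells whether these are repeats of 1 siRNA or different ones, so its SDs may also hold differences among siRNAs. All cells were of the same line and were grown in the same medium with serum. Nothing in the labels ties the replicates to separate cultures; p-values thus reflect the spread among these samples alone, and that spread may be technical. The genes had been chosen with their values in these libraries known, and their levels and differences are therefore a description, with no p-value. Calls from the fit across all genes are only counted for them, beside the share of all genes called.

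Matrix metalloproteinases are zinc-dependent enzymes that are made as inactive proenzymes, are cut to become active, and degrade extracellular matrix and proteins at the cell surface. Tissue inhibitors of metalloproteinases, or TIMPs, bind the active site of the mature enzymes and block it. In carcinomas the family is known for its part in invasion and in the release of growth factors from the matrix, and transcription of several members is known to respond to AP-1, a dimer of Fos and Jun proteins.

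Expression was given in FPKM, a unit that divides mapped fragments by transcript length and by library size, so levels could be set side by side between genes. FPKM summed to 321551 to 332950 per library, read totals were not used here and the depth is unknown. Wee1, the gene named in both treatments, was not lowered: its FPKM was 10.5 to 11.5 in NC, 14.7 to 16.8 under MK1775 and 13.1 to 15.3 in the third group. That group is therefore called the libraries labelled Wee1 siRNA, and each direction drawn from it rests on the label alone. Of 10 epithelial markers, 6 reached 1 FPKM in at least 1 library, led by Krt8 and Krt18, and their summed level was 439 to 503 FPKM in NC, 785 to 798 under MK1775 and 729 to 731 in the siRNA-labelled libraries. Krt7, another of the 6, went the other way from that sum. It was at 20.8 to 28.8 FPKM in NC, 11.2 to 16.1 under MK1775 and 10.3 to 18.3 in the siRNA-labelled libraries. Epcam, a defining epithelial marker, was at most 0.573 FPKM. The macrophage and monocyte markers summed to 8.8 to 10.1, 5.55 to 7.87 and 6.87 to 8.76 FPKM in the same order, mostly Cd14 and Cd68, while Adgre1 and Lyz2 were at 0 in all libraries. The fibroblast markers Lum and Fap were also at 0 in all libraries, and the 9 fibroblast markers summed to 2.12 to 3.6 FPKM, mostly Pdgfra and Pdgfrb. Pdgfrb was at 1.35 to 1.49 FPKM in NC, 0.766 to 0.817 under MK1775 and 0.629 to 0.844 in the siRNA-labelled libraries. Pdgfra overlapped between groups, with means of 1.15, 1.22 and 1.60 FPKM in the same order. The 6 neutrophil markers summed to 1.23 to 2.7 FPKM, mostly S100a8, and the 5 endothelial markers to under 1 FPKM.

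Promoter sequence was matched for 7 of the 10 genes in RefSeq (GRCm38.p6), and those of 3 neighbouring metalloproteinase genes on chromosome 9 are shown because each holds an AP-1 motif while the genes differ in how their transcripts moved. Each line gives the 250 bases before the RefSeq start on the plus strand, with the AP-1 match in capitals. The windows are chr9:7445572-7445821 for Mmp3, chr9:7502092-7502341 for Mmp10 and chr9:7272264-7272513 for Mmp13.
Mmp3: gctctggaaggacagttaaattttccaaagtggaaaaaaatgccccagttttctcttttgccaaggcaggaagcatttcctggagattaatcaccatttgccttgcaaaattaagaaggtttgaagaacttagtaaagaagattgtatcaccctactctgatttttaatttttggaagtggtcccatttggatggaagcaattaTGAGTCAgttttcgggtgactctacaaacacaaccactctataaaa
Mmp10: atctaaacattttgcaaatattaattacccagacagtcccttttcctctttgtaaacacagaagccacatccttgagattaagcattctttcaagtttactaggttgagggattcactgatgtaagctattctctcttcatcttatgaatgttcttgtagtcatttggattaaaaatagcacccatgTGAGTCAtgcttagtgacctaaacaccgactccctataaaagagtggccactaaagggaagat
Mmp13: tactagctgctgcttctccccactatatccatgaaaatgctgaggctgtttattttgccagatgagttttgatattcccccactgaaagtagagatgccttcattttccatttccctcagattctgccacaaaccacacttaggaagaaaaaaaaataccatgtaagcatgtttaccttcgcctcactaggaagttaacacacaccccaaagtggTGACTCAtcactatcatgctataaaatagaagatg

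The motif searched was TGANTCA, which reads the same on both strands. Counted back from the base before the start as -1, the match spanned -46 to -40 in Mmp3 (TGAGTCA), -63 to -57 in Mmp10 (TGAGTCA) and -35 to -29 in Mmp13 (TGACTCA). The windows of Mmp14, Timp1, Timp2 and Timp3 held no such letters. Among all 32851 RefSeq promoter windows of this length, 6.75% held the motif. The TATA letters TATAAA were found in the same 3 windows and in none of the other 4, against 12.4% of all windows, and the Ets letters AGGAAG in 5 of the 7, against 29.5%, with both strands searched and no overlap between the motifs. A match is a description of the letters, not of a bound site.

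Among the stromelysins, Mmp3 (stromelysin 1) had the largest difference of the 7 genes expressed well enough to be fitted. This enzyme cleaves proteoglycans, laminin and fibronectin and activates other metalloproteinase proenzymes. Its single annotated transcript (chromosome 9, 7445822 to 7455975, plus strand, GRCm39) stood at 99.4, 108 and 113 FPKM in the NC libraries, 26.6, 28.0 and 29 under MK1775, and 30.9, 28.1 and 28.5 in the siRNA-labelled libraries. All 6 treated libraries lay far below all NC libraries, and the treated groups overlapped each other. The NC mean was 3.84 times the MK1775 mean and 3.66 times the siRNA-labelled mean. On the log2(FPKM + 1) scale, on which changes of low genes are understated, the limma difference was -1.90 under MK1775 (SE 0.063, 95% interval -2.05 to -1.76) and -1.84 in the siRNA-labelled libraries (-1.98 to -1.69). In bulk RNA, fewer cells expressing a gene and less RNA per cell cannot be told apart.

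Mmp10 (stromelysin 2), a close relative of Mmp3 with a similar range of matrix substrates, lies 46.4 kb further along the chromosome (7502353 to 7510241). Its FPKM was 27.0, 28.2 and 32.2 in NC, 16.9, 18.5 and 17.8 under MK1775, and 17.2, 17.2 and 17.4 in the siRNA-labelled libraries. The direction was that of Mmp3 but the step was smaller, with an NC mean 1.64 and 1.69 times the treated means. The log2 difference was -0.68 under MK1775 (SE 0.069, 95% interval -0.84 to -0.53) and -0.72 in the siRNA-labelled libraries (-0.88 to -0.56). Of all 50-base stretches of the Mmp3 transcript, 8.39% also occur in another gene, nearly all in Mmp10. Of those of the Mmp10 transcript, 8.37% occur in Mmp3. Some reads of either gene could thus have been assigned to its neighbour. With Mmp3 at 99.4 to 113 FPKM in NC and Mmp10 at 27.0 to 32.2, such reads would weigh more on Mmp10. Their part in the Mmp10 difference was not tested.

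Mmp13 (collagenase 3), which cuts fibrillar collagens, is on the other side of Mmp3, 162.5 kb away (7272514 to 7283331). It was at 6.41, 5.28 and 6.15 FPKM in NC, 5.90, 5.44 and 5.06 under MK1775, and 5.67, 5.73 and 6.03 in the siRNA-labelled libraries. The 3 groups overlapped. The log2 difference was -0.10 under MK1775 (95% interval -0.29 to 0.09) and -0.03 in the siRNA-labelled libraries (-0.22 to 0.16).

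The gelatinase Mmp9, which degrades denatured collagen and basement membrane collagen IV, was the only one of the 10 genes at 1 FPKM or more whose treated libraries all lay above NC. It lies on chromosome 2 (164782700 to 164797770, plus strand). Its FPKM was 28.2, 31.7 and 32.3 in NC, 42.4, 45.2 and 45.4 under MK1775, and 44.0, 42.4 and 39.4 in the siRNA-labelled libraries. The treated means were 1.44 and 1.36 times the NC mean, with log2 differences of 0.51 (SE 0.066, 95% interval 0.36 to 0.67) and 0.44 (0.28 to 0.59). Neutrophils and macrophages are also known to make this enzyme. The 6 neutrophil markers summed to 1.23 to 2.16 FPKM in NC, 1.29 to 1.32 under MK1775 and 1.4 to 2.7 in the siRNA-labelled libraries. Most of each sum was S100a8, and 5 of the 6 markers were at 0 throughout NC, 2 throughout MK1775 and 1 throughout the siRNA-labelled libraries. Of the 8 macrophage and monocyte markers, 4 were at 0 throughout NC and 2 throughout each treated group. Cd14 and Cd68 had lower means in the treated groups, while Itgam was at 0 in NC and at 0.167 to 0.545 FPKM in the treated libraries. The part of such cells in the Mmp9 difference was not tested. The other gelatinase, Mmp2, was close to absent, at 0.055 to 0.127 FPKM in NC, 0.082 to 0.088 under MK1775 and 0 to 0.104 in the siRNA-labelled libraries.

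**Figure D1:**
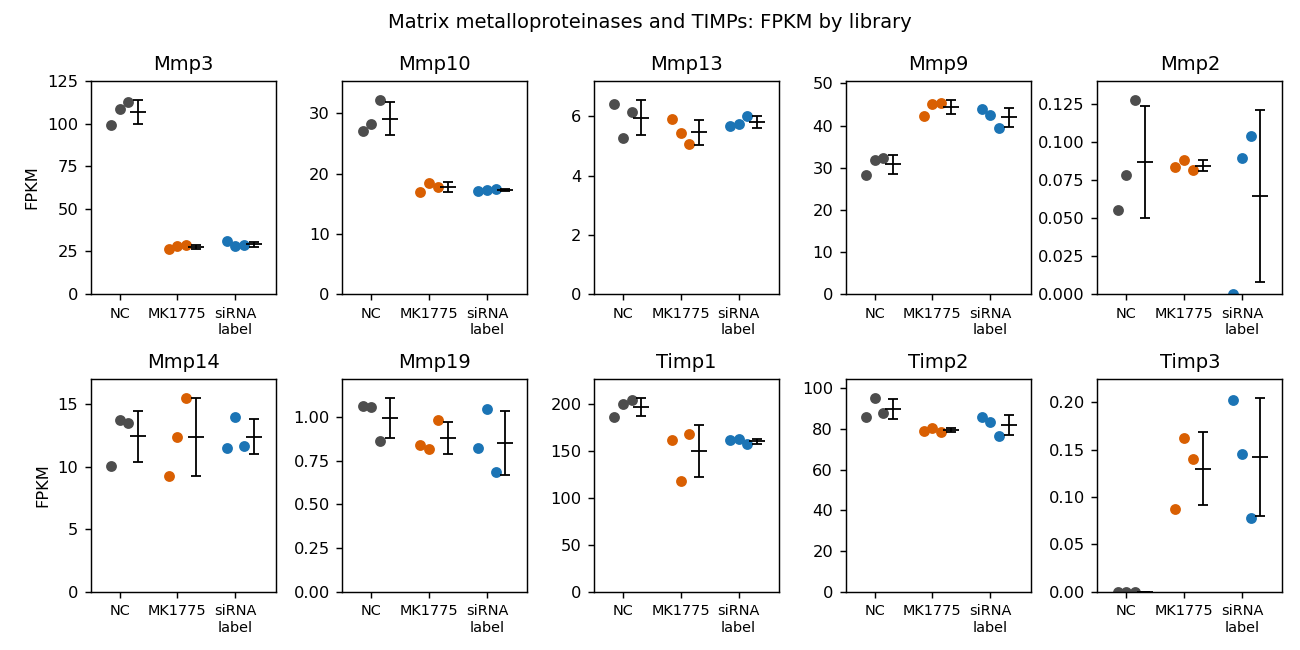
FPKM of each of the 10 genes (vertical axis, starting at 0, scaled separately per gene) in the 3 NC, 3 MK1775 and 3 siRNA-labelled libraries (points), with the mean and SD of each group in black. For Mmp3, Mmp10 and Timp1 all treated points lie below NC, and for Mmp9 and, near 0, Timp3 all lie above. For Timp2 only the MK1775 points all lie below NC. For Mmp2, Mmp13, Mmp14 and Mmp19 the groups overlap.

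Mmp14 (MT1-MMP), a membrane-anchored enzyme best known for activating the Mmp2 proenzyme, did not separate the groups. It lies on chromosome 14 (54669069 to 54682821, plus strand) and was at 10.1, 13.7 and 13.5 FPKM in NC, 9.25, 12.4 and 15.5 under MK1775, and 11.5, 14 and 11.7 in the siRNA-labelled libraries. Its log2 difference was -0.02 under MK1775, but the 95% interval ran from -0.45 to 0.40, the widest among the 7 genes that could be tested. An assembled transcript without a gene name, 3837 bases long with 11 exons, covers the same locus and held 50.6% to 70.1% of the FPKM there. With it added, Mmp14 was at 29.9, 33.4 and 33.7 FPKM in NC, 30.9, 32.3 and 31.4 under MK1775, and 30.9, 30.7 and 28.3 in the siRNA-labelled libraries. The MK1775 libraries then lay closer together, with an SD of 0.712 in place of 3.11 FPKM, while the SD of the other groups changed little. The difference under MK1775 was -0.03, and the MK1775 and NC libraries still overlapped.

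Mmp19, a secreted enzyme that cleaves basement membrane components, was at 0.861 to 1.06 FPKM in NC, 0.816 to 0.981 under MK1775 and 0.684 to 1.04 in the siRNA-labelled libraries, under the mean of 1 FPKM set for the fit. Its sum came from a pair of 9-exon transcripts that traded places between libraries: one was at 0.939 and 0.92 FPKM in NC replicates 1 and 2 and at 0 in replicate 3, where the other was at 0.861. The same exchange occurred within the treated groups, so only the sum is read here. Tmem198b, on the opposite strand, overlaps the end of the gene at 1.85 to 3.63 FPKM, and strand-aware counting is not stated.

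Of the inhibitors, Timp1 and Timp2 were abundant and Timp3 was near 0. Timp1, a secreted inhibitor of most soluble metalloproteinases, ranked at the top of the 10 genes in each group. Its named transcripts (chromosome X, 20736405 to 20740974, plus strand) summed to 186, 200.3 and 204 FPKM in NC, 162, 118 and 169 under MK1775, and 161, 162 and 157 in the siRNA-labelled libraries. All treated libraries were below NC, and MK1775 replicate 2 stood apart within its group. The log2 difference was -0.41 under MK1775 (SE 0.12, 95% interval -0.69 to -0.13) and -0.29 in the siRNA-labelled libraries (-0.58 to -0.01). Without MK1775 replicate 2 the former was -0.25.

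In that library, and in no other, the deposited table placed 37.0 and 6.43 FPKM on 2 unnamed Timp1 transcripts of 935 and 938 bases. Unnamed transcripts held 29.9% of the Timp1 locus there, against 1.15% to 4.39% in the other libraries. With all unnamed transcripts added, Timp1 was at 189, 203 and 206 FPKM in NC, 169.7, 168 and 175 under MK1775, and 165, 167 and 161 in the siRNA-labelled libraries. MK1775 replicate 2 then lay with the other 2, the groups still did not overlap NC, and the difference under MK1775 shrank to -0.22, more than 1.5 times smaller. The gene lies within Syn1 on the opposite strand, whose own level was at most 0.614 FPKM.

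**Figure D2:**
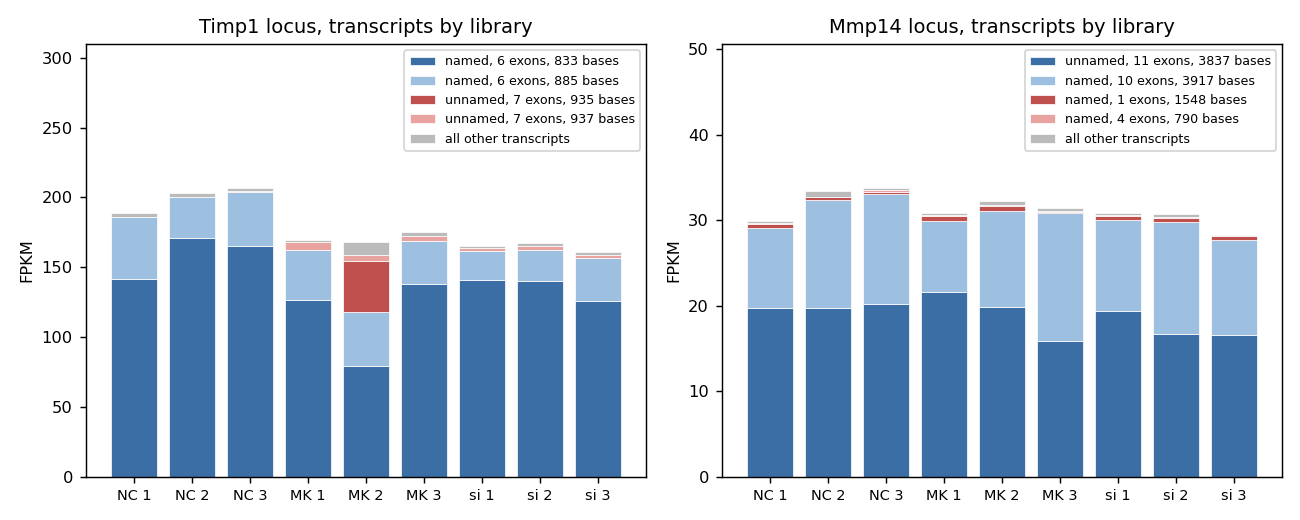
FPKM per library (stacked bars from 0; NC, MK for MK1775 and si for the siRNA-labelled libraries, replicates 1 to 3) split over the 4 most abundant transcripts at the Timp1 locus (left) and the Mmp14 locus (right), with the rest in grey. A red segment of 37.0 FPKM appears at Timp1 only in MK1775 replicate 2, and at Mmp14 the unnamed transcript holds at least 50.6% of every bar.

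Timp2, which both inhibits metalloproteinases and takes part in the activation of Mmp2 by Mmp14, lies on chromosome 11 (118191895 to 118246566, minus strand). It was at 85.8, 95 and 87.9 FPKM in NC, 78.9, 80.5 and 78.5 under MK1775, and 86.0, 83.1 and 76.5 in the siRNA-labelled libraries. The MK1775 libraries lay just below NC, and the siRNA-labelled libraries overlapped NC. The log2 difference was -0.17 (SE 0.056, 95% interval -0.30 to -0.04) and -0.13 (-0.26 to 0.00). Timp3, an inhibitor that stays bound to the matrix, was at 0 in all NC libraries, at 0.088, 0.163 and 0.14 FPKM under MK1775, and at 0.202, 0.146 and 0.078 in the siRNA-labelled libraries. These levels are near the lower end of the table and no fold is given; Syn3, which spans the gene on the opposite strand, was likewise at 0 in NC and at 0.02 to 0.055 FPKM in the treated libraries.

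By named transcripts alone, the order of the levels in NC was Timp1, Mmp3, Timp2, Mmp9, Mmp10, Mmp14, Mmp13, Mmp19, Mmp2 and Timp3. Of neighbours in that order only Mmp9 and Mmp10 overlapped between libraries. With unnamed transcripts added, Mmp14 overlapped Mmp9 and Mmp10 in NC, at 29.9 to 33.7 FPKM. Mmp14 then lay above Mmp3 under MK1775, at 30.9 to 32.3 FPKM, and overlapped Mmp3 in the siRNA-labelled libraries. In both treated groups Mmp3 stood below Timp2 and Mmp9, with no overlap, and Timp3 and Mmp2 at the bottom overlapped. Mmp3 made up 57.0% to 57.7% of the summed FPKM of the 7 metalloproteinases in NC, 25.3% to 26.1% under MK1775 and 25.9% to 28.1% in the siRNA-labelled libraries. Mmp9 took 16.3% to 16.8%, 39.9% to 41.6% and 38.0% to 40.0% of that sum in the same order. The ratio of Mmp3 to Mmp9 was thus 3.48 ± 0.053 in NC, 0.629 ± 0.010 under MK1775 and 0.697 ± 0.031 in the third group (SD, n = 3). With unnamed transcripts added, the Mmp3 share was 51.7% to 52.1% in NC, 21.5% to 22.4% under MK1775 and 22.45% to 23.9% in the siRNA-labelled libraries. The Mmp9 share was then 14.7% to 15.2%, 34.3% to 35.0% and 32.7% to 34.0% in the same order. By named transcripts, the sum of the 7 was 186 ± 13.0 FPKM in NC, 109 ± 6.09 under MK1775 and 108 ± 3.29 in the siRNA-labelled libraries. Without Mmp3 the sums were 79.3 ± 6.15, 80.8 ± 4.91 and 78.4 ± 2.71 FPKM (SD, n = 3), which overlapped between groups. The 3 inhibitors summed to 286 ± 12.8, 229 ± 26.6 and 242 ± 7.55 FPKM, and the ratio of the inhibitor sum to the metalloproteinase sum was 1.54 ± 0.056, 2.11 ± 0.29 and 2.25 ± 0.0068. With unnamed transcripts added that ratio was 1.40 ± 0.046, 1.96 ± 0.052 and 1.97 ± 0.029. These sums describe transcripts, and say nothing of proenzyme activation or secreted protein.

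Of the 10 genes, 7 had a mean of at least 1 FPKM and entered the fit of 10453 genes, and Mmp2, Mmp19 and Timp3 did not. At a limma adjusted p under 0.05, 1 of the 7 (Mmp9) was higher under MK1775, where 17.9% of all genes tested were, and 4 (Mmp3, Mmp10, Timp1 and Timp2) were lower, where 23.1% were. The calls of Timp1 and Timp2 were lost without NC replicate 2 or without NC replicate 3, and that of Timp2 also without any single MK1775 library or without siRNA-labelled replicate 2. In the siRNA-labelled libraries 1 (Mmp9) was higher, beside 19.6% of all genes, and 2 (Mmp3 and Mmp10) were lower, beside 23.2%. The libraries of the groups did not overlap for 5 of the 7 under MK1775, against 54.0% of all genes tested, and for 4 of the 7 in the siRNA-labelled libraries, against 52.2%. As these contrasts were used in choosing the genes, nothing is read from the counts. The median log2 difference of the 7 was -0.17 under MK1775 and -0.13 in the siRNA-labelled libraries, and that of all genes tested was -0.04 and -0.01. Both comparisons share the same NC libraries.

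Set directly against each other, MK1775 and the siRNA-labelled libraries differed in none of the 7 by limma at an adjusted p under 0.05, nor at an unadjusted p under 0.05. Over all genes tested, 0.00957% were higher under MK1775 and 0.0% lower. The differences of the 7 ran from -0.12 (Timp1) to 0.08 (Mmp9). The 95% interval was -0.21 to 0.08 for Mmp3 and -0.07 to 0.23 for Mmp9, and it was widest for Mmp14, from -0.45 to 0.40.

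**Figure D3:**
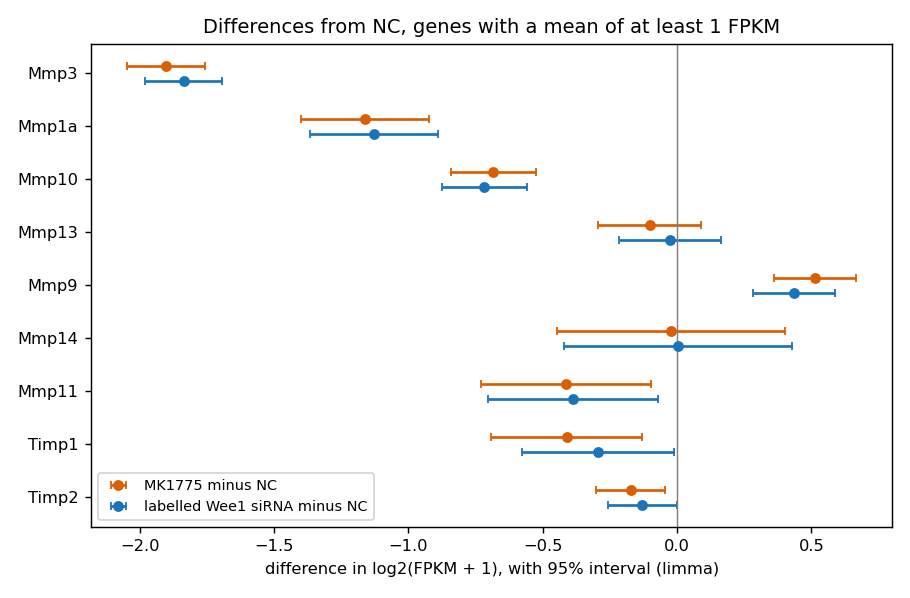
Difference in log2(FPKM + 1) from NC with 95% limma interval (horizontal axis) for the 7 of the 10 genes that reached a mean of 1 FPKM and for Mmp1a and Mmp11, under MK1775 in orange and the siRNA-labelled libraries in blue. Mmp3 lies farthest left at -1.90 and -1.84, Mmp9 is the only gene to the right of 0 with both intervals, and Mmp13 and Mmp14 straddle 0.

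Mmp3, Mmp10 and Mmp13 belong to a cluster of 10 metalloproteinase genes that spans 427.1 kb of chromosome 9. Between Mmp3 and Mmp10 lies Mmp1a, an interstitial collagenase, at 2.41, 2.33 and 2.85 FPKM in NC, 0.662, 0.588 and 0.48 under MK1775, and 0.569, 0.496 and 0.786 in the siRNA-labelled libraries. Mmp1a was lower in all 6 treated libraries, and fell by 1.16 (log2, SE 0.10, limma adjusted p = 8.5e-05) and by 1.13 (adjusted p = 9.52e-05). The NC mean was 4.38 and 4.10 times the treated means. Of the Mmp1a transcript, 8.41% of 50-base stretches occur in Mmp1b, which was at most 0.397 FPKM. The cluster's other genes, Mmp12, Mmp1b, Mmp8, Mmp27, Mmp20 and Mmp7, were under 1 FPKM in every library, and Mmp8, Mmp27 and Mmp7 were at 0 throughout. Thus the 3 expressed genes at the centre of the cluster (Mmp3, Mmp1a and Mmp10) were lower in the treated libraries, and Mmp13 at its edge overlapped NC. Dcun1d5, no metalloproteinase gene, is the nearest gene beyond Mmp13 with a mean of at least 1 FPKM. It was at 34.2, 31.0 and 33.8 FPKM in NC, 19.2, 15.8 and 20.0 under MK1775, and 17.6, 19.8 and 20.9 in the siRNA-labelled libraries. Dcun1d5 was added after its values were seen, and no gene beyond Mmp7 is given.

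**Figure D4:**
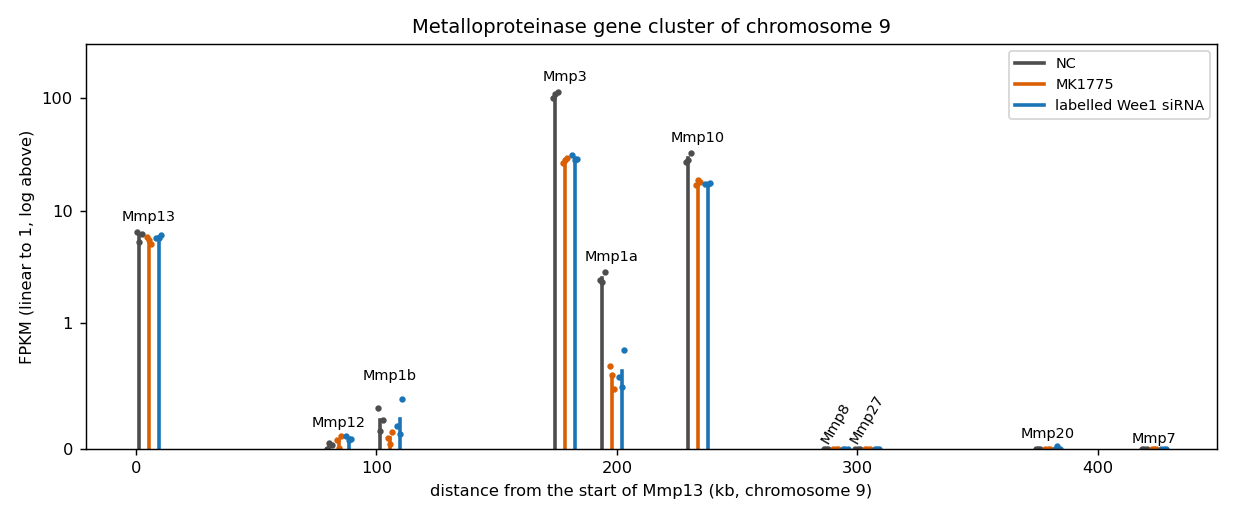
FPKM (vertical axis, linear up to 1 and logarithmic above) of the 10 metalloproteinase genes of the chromosome 9 cluster, placed by distance in kb from the start of Mmp13; lines reach the group mean and points are the libraries, with the 3 groups drawn side by side at each gene. The treated groups are lower at Mmp3, Mmp1a and Mmp10, while Mmp13 is level at 5.06 to 6.41 FPKM and the last 4 genes are at or near 0.

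Of the other 17 genes of both families, only Mmp1a and Mmp11 had a mean of at least 1 FPKM, and 5 were at 0 in every library. Mmp11 (stromelysin 3), an enzyme that furin activates inside the cell, was at 4.49, 6.25 and 5.77 FPKM in NC, 4.23, 3.89 and 3.47 under MK1775, and 4.25, 4.43 and 3.22 in the siRNA-labelled libraries. It fell by 0.41 under MK1775 (limma adjusted p = 0.0429), and its difference in the siRNA-labelled libraries was -0.39 (adjusted p = 0.0515). The MK1775 call was lost in 12 of 18 alternative settings. Below the filter, Mmp24 was at 0.084 to 0.114 FPKM in NC and at 0.447 to 0.681 in the treated libraries, and Mmp28 at 0.161 to 0.215 and 0.407 to 0.755. Both lay above NC in every treated library and neither was tested.

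Genes that act around the metalloproteinases were taken from 7 lists with 157 genes, of which 88 had a mean of at least 1 FPKM. Of these, 24 rose and 18 fell under MK1775, and 23 rose and 17 fell in the siRNA-labelled libraries (limma adjusted p under 0.05). Over all genes tested, 17.9% rose and 23.1% fell under MK1775, and 19.6% and 23.2% in the siRNA-labelled libraries. The lists were chosen with earlier results of these data known. Their counts and p-values are therefore no independent support, and nothing is read from the counts. The median difference over the 88 was -0.01 in both comparisons. In the direct comparison of the treated groups none passed by limma, and 6 had an unadjusted p under 0.05.

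Among 10 proenzyme activators and their inhibitors tested, 4 rose and 1 fell under MK1775, and 3 rose and 1 fell in the siRNA-labelled libraries. The one that fell was Plau (urokinase), which makes plasmin, an activator of several metalloproteinase proenzymes. Plau was at 59.5, 62.0 and 68.5 FPKM in NC, 21.2, 22.0 and 22.3 under MK1775, and 21.3, 21.4 and 21.2 in the siRNA-labelled libraries. It fell by 1.49 (SE 0.056, limma adjusted p = 1e-06) and by 1.52 (adjusted p = 8.62e-07), with no overlap between treated and NC libraries. Serpine2 (protease nexin 1), a serine protease inhibitor, rose by 0.29 under MK1775 (adjusted p = 0.00605), and its difference in the siRNA-labelled libraries was 0.14 (adjusted p = 0.104). The proprotein convertase Furin, which cuts the Mmp14 and Mmp11 proenzymes, rose by 0.48 under MK1775 (adjusted p = 0.00955), and its difference in the siRNA-labelled libraries was 0.29 (adjusted p = 0.0724). Cathepsin L (Ctsl) passed in the siRNA-labelled libraries alone (1.29, adjusted p = 0.0485), but its NC libraries ranged from 109.6 to 297 FPKM and the call was lost in 10 of 19 alternative settings.

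Of 14 other regulators at the protein level, 1 rose and 2 fell under MK1775, and 1 rose and 1 fell in the siRNA-labelled libraries. Sdc1 (syndecan 1), a heparan sulfate proteoglycan shed by metalloproteinases, fell by 0.84 (limma adjusted p = 3.16e-05) and by 0.86 (adjusted p = 2.74e-05), from 58.1 to 62.9 FPKM in NC to 30.7 to 35.0 in the treated libraries. Itgb1, a matrix receptor subunit, rose by 0.39 and 0.40 (adjusted p = 0.0011 and 0.000991). Cd44, a hyaluronan receptor that docks Mmp9 at the cell surface, fell by 0.38 under MK1775 (adjusted p = 0.0316), but with unnamed transcripts added its difference was 0.44 in the opposite direction. Reck, a membrane-anchored inhibitor of Mmp2, Mmp9 and Mmp14, was at 0.859 to 1.48 FPKM over all libraries with differences of 0.05 and 0.17 (adjusted p = 0.734 and 0.204).

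Of 9 ADAM and ADAMTS proteases tested, a related metalloproteinase family, 1 rose and 3 fell under MK1775, and 1 rose and 2 fell in the siRNA-labelled libraries. Adamts9, which cleaves proteoglycans of the matrix, fell by 1.00 and by 1.01 (limma adjusted p = 7.72e-05 and 7.38e-05), from a mean of 5.01 FPKM in NC to 1.99 in each treated group. Adam19 fell by 0.72 and by 0.64 (adjusted p = 8.24e-05 and 0.000142). Adam8, a membrane-anchored protease, rose by 0.66 and 0.67 (adjusted p = 0.000231 and 0.000219), from a mean of 3.18 to 5.62 and 5.64 FPKM. Adam17, the sheddase that Timp3 inhibits, had differences of 0.43 and 0.45 that did not pass (adjusted p = 0.353 and 0.321), with replicate 2 of the treated groups at 14.5 and 13.8 FPKM and the other 7 libraries at 5.79 to 7.06.

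Among 15 matrix and surface substrates tested, 3 rose and 4 fell in both comparisons. The collagen IV chains of basement membrane, substrates of Mmp9, fell: Col4a1 by 0.48 and by 0.68 (limma adjusted p = 0.00205 and 0.000323), and Col4a2 by 0.42 and by 0.56 (adjusted p = 0.0016 and 0.000369). Sparc, a matrix glycoprotein, fell by 0.34 and by 0.61 (adjusted p = 0.00386 and 0.000197). Fn1 (fibronectin), a substrate of Mmp3, rose by 0.73 and 0.69 (adjusted p = 0.000152 and 0.0002), from a mean of 45.5 FPKM in NC to 76.0 and 74.1. Cdh1 (E-cadherin), a junction protein that Mmp3 can cleave, rose by 0.74 in both comparisons (adjusted p = 0.000108 and 0.000102), from a mean of 2.80 to 5.32 and 5.35 FPKM.

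Of 23 transcription factors known to act on metalloproteinase promoters, 10 rose and 4 fell under MK1775, and 9 rose and 4 fell in the siRNA-labelled libraries. The AP-1 components Fos, Junb, Fosl2, Jun and Jund rose in both comparisons. Batf3 of the same list fell by 0.84 and by 0.89 (limma adjusted p = 0.00163 and 0.0012). Fosl1 had differences of -0.75 and 0.14 that did not pass (limma adjusted p = 0.305 and 0.856). Fos was at 0.589, 0.812 and 0.389 FPKM in NC and at 4.27 to 5.41 in the treated libraries, and rose by 1.92 and 1.84 (limma adjusted p = 1.32e-05 and 1.62e-05). Junb rose by 1.80 and 1.83 (adjusted p = 2.08e-06 and 1.69e-06), from a mean of 20.1 FPKM to 72.3 and 74. Rela, a subunit of NF-kB, rose by 1.00 and 0.95 (adjusted p = 1.61e-05 and 2.07e-05). Nfkb1, another NF-kB subunit of the list, fell, with differences of -0.45 and -0.47 (limma adjusted p = 0.0346 and 0.0277). Elf3, an epithelial Ets factor, rose by 0.80 and 0.78 (adjusted p = 0.000377 and 0.0004), while the Ets factor Etv5 fell by 0.55 and by 0.67 (adjusted p = 0.000925 and 0.000311). Twist1, a driver of the mesenchymal programme, fell by 1.08 and by 1.04 (adjusted p = 1.54e-05 and 1.83e-05), from a mean of 19.8 FPKM to 8.85 and 9.11. The AP-1 motif shown above stands in the promoters of Mmp3, Mmp10 and Mmp13, whose differences under MK1775 were -1.90, -0.68 and -0.10. Any part of AP-1 in these differences was not tested.

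Of 15 inducing ligands and receptors tested, 5 rose and 2 fell under MK1775, and 6 rose and 4 fell in the siRNA-labelled libraries. Il11, a cytokine that signals through the shared receptor subunit Il6st and is known to induce Timp1, was at 0.32, 0.53 and 0.504 FPKM in NC, 32.8, 34.0 and 33.8 under MK1775, and 34.9, 30.6 and 33.6 in the siRNA-labelled libraries. It rose by 4.57 and 4.55 (limma adjusted p = 1.34e-08 and 1.39e-08), and Il6st rose by 0.79 and 0.81 (adjusted p = 1.35e-05 and 1.17e-05). The Il11 receptor Il11ra1 went the other way, with differences of -0.28 and -0.45 (limma adjusted p = 0.0815 and 0.0121). Tgfb2 rose by 1.41 and 1.51 (adjusted p = 7.63e-06 and 5.43e-06), while Tgfb3 fell by 0.56 and by 0.50 (adjusted p = 0.000391 and 0.000651) and the receptor Tgfbr2 fell by 0.35 and by 0.38 (adjusted p = 0.0017 and 0.00119). Areg (amphiregulin), a ligand of the EGF receptor, rose by 0.54 and 0.60 (adjusted p = 0.000183 and 0.0001).

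**Figure D5:**
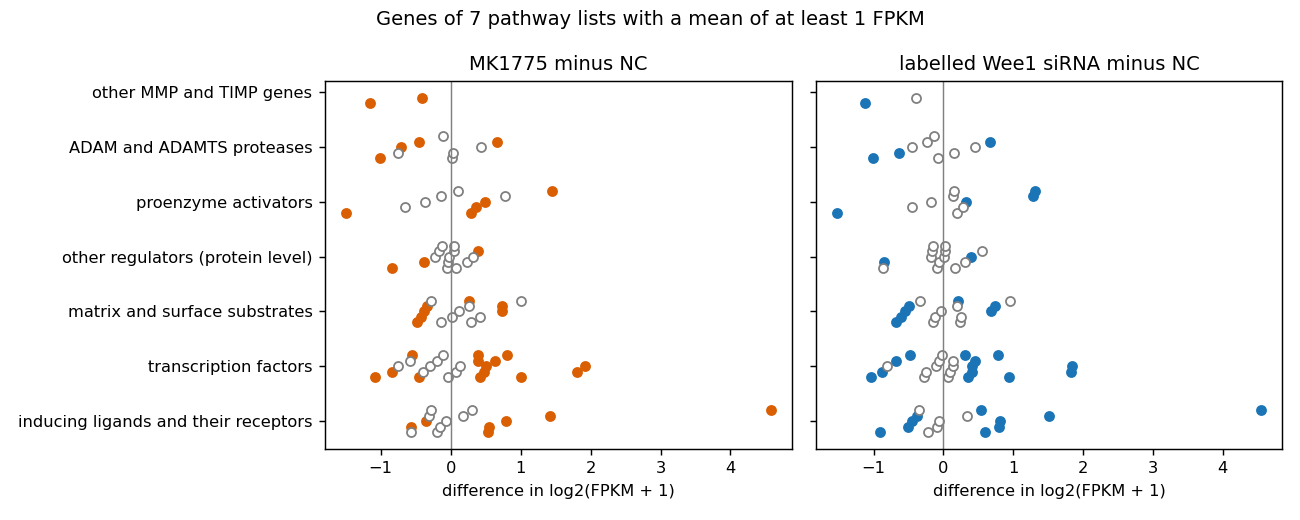
Difference in log2(FPKM + 1) from NC (horizontal axis) of the 88 tested genes of 7 lists (rows; the vertical spread within a row only separates points), under MK1775 on the left and the siRNA-labelled libraries on the right; filled points passed a limma adjusted p under 0.05. Each list holds genes on both sides of 0 except the other family genes, and Il11 lies farthest right at 4.57 and 4.55.

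Genes whose log2(FPKM + 1) ran most like that of a metalloproteinase were ranked by Pearson correlation over the 9 libraries, which describes mostly the step between NC and treated libraries that these genes share. Closest to Mmp3 were Dpp3 (r = 0.998), Plau (0.997) and Uhrf1 (0.997), a peptidase, the urokinase described above and a regulator of DNA methylation. Closest to Mmp10 were 1810037I17Rik (0.992), Plau again (0.991) and Acat2 (0.989). Closest to Mmp9 were Mpst (0.994), Med19 (0.991) and Cbwd1 (0.99), with Med19, a Mediator subunit, at 15.3 to 18.1 FPKM in NC and 25.3 to 27.9 in the treated libraries.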

How the data were processed

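RNA was taken from 4T1 cells at day 2 in 9 libraries, 3 per group. An RNeasy kit and a NEBNext library kit were used, per the labels' protocols; poly(A) selection and strand were not known here. The submitters' processing notes list FastQC, Trim Galore, HISAT2 and StringTie with no version, and the build GRCm39. The authors deposited FPKM per transcript for 158719 transcripts, 17991 of them without a gene name. These values give no depth and so no counting interval.

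FPKM of the transcripts that carry a gene name was summed per gene; 19 names that occur on several chromosomes were dropped. Values were analysed as log2(FPKM + 1), with genes of a mean of at least 1 FPKM fitted together in limma 3.58.1 (R 4.3.3) with 3 group means, eBayes with trend, two-sided tests and Benjamini-Hochberg adjustment over all 10453 genes at a threshold of 0.05. The fit was tested on simulated data. An exact permutation test of 3 against 3 cannot go below p = 0.1. Coordinates are spans of named transcripts in the deposited table, and promoter windows come from RefSeq in another build, GRCm38.p6; shared 50-base stretches were counted in GENCODE transcripts. Figures were drawn with matplotlib 3.10.9.

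The 10 genes, the lists and the rule for named genes were chosen with earlier results of these data known. The rule names the 10 genes; per list up to 4 genes with the smallest adjusted p with MK1775 and up to 2 more in the siRNA-labelled libraries; expressed genes of the rest of both families; genes that overlap the 10 or adjoin them in the cluster; and the 3 genes most correlated with each of Mmp3, Mmp10 and Mmp9. Mmp24, Mmp28 and Dcun1d5 were singled out after their values were seen. Nfkb1 and Il11ra1, outside the rule, were added beside Rela and Il6st. Alternatives were other pseudocounts, filters and scalings, a replicate block, fits of only the 2 groups compared, the most abundant transcript per gene, unnamed transcripts added, and leaving out each library. One gene that the rule names is not reported here.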

Additional observations from a re-analysis of the deposited data

Results flagged for a closer look

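An unnamed assembled transcript that begins at Timp1 and runs past it (chromosome X, 20736460 to 20769347, GRCm39, 7 exons, 937 bases) was left out of the sums by gene name. It was at 0.118, 0.094 and 0.377 FPKM in NC, at 5.90, 4.26 and 4.18 under MK1775 (mean 4.78), and at 2.15, 3.03 and 1.73 in the libraries labelled Wee1 siRNA (mean 2.30). All treated libraries lay above all NC libraries, and the MK1775 libraries above the siRNA-labelled ones; the difference was not tested. It drew attention as a signal above the NC level in data outside the main measurement. Groups of 3 libraries are too small for the search for outlying samples.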

How the results depend on the processing

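Results were recomputed under 19 alternatives, 9 of which leave out a library. Mmp3, Mmp9 and Mmp10 kept their direction in all 19 in both comparisons with NC, with ranges under MK1775 of -1.95 to -1.85, 0.46 to 0.58 and -0.73 to -0.61. The call of Timp1 under MK1775 was made in 13 and that of Timp2 in 8. The genes were chosen on these contrasts, so none of this supports them independently. The number of lower genes among the 10 under MK1775 was 2 rather than 4 with no expression filter, with median-of-ratios scaling and with the most abundant transcript per gene, and 2 to 4 when a library was left out; the cause was not tested. With no filter, Timp3 joined Mmp9 and the number of higher genes was 2 in both comparisons. The pathway genes called numbered 29 to 57 under MK1775 (42 as reported) and 29 to 59 in the siRNA-labelled libraries (40 as reported), and 37 to 44 and 35 to 41 when a library was left out; the direct comparison gave 0 throughout. Of 60 calls of pathway genes named by the rule, 47 held under every alternative that gave a value. Pcsk7 in the siRNA-labelled libraries reversed to -0.31 with the most abundant transcript, and Cd44 under MK1775 to 0.44 with unnamed transcripts added; the cause was not tested.

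Replicate numbers are shared between groups, and deviations of same-numbered libraries correlated at -0.12 to 0.043. Differently numbered libraries were not set beside them, so these correlations cannot decide whether the numbers pair libraries. With the replicate block, 39 pathway genes were called under MK1775 and 37 in the siRNA-labelled libraries. FPKM gives no depth, so levels near 0, as of Mmp2 and Timp3, have no known precision.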
